A study of Arabidopsis thaliana with 12 samples.

Results

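In mature, unshaded rosette leaves of Arabidopsis thaliana at developmental stage 3.7, 72 probe sets were both higher in the line ape2 than in Ws-2 and lower in a condition called H than in a condition called L. They were chosen from 22746 probe sets, controls left out, by their group means of log2(signal + 10). A mean signal of 50 or more over the 12 arrays was required, which 9739 probe sets met, together with a mean difference of ape2 minus Ws-2 of at least 0.5 over both conditions and a mean difference of H minus L of at most -0.4 over both genotypes. AT5G19120 and AT1G23390 were left out by name, and 1 probe set that met the limits was removed for this reason. The values that chose the probe sets are given below as a description, with no test. The test is of the interaction between genotype and condition, which was not among the limits of the choice.

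The groups were ape2 H, ape2 L, Ws-2 H and Ws-2 L, each with 3 arrays. Ws-2 is a natural accession, and ape2 is a single T-DNA insertion line in that background. By its title the study is of a TPT mutant, and no second allele or complemented line is among the arrays. What L and H stand for is not spelled out in the labels, so both are used as names. The annotation at hand gives TPT no probe set, and the genotype labels were therefore not checked on its transcript.

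TPT sits in the inner membrane around the chloroplast and swaps triose phosphates, made by carbon fixation, for phosphate from the cytosol. In leaves without it, more of the fixed carbon is held in the chloroplast as starch, and the carbon of that starch leaves as maltose and glucose. Leaf cells adjust many transcripts to their sugar and energy supply and to light, and transcripts of defence, growth and stress proteins are among those that respond.

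The arrays were alike in their overall signal, with array medians between 36.2 and 40.1 and between 63.8% and 67.7% of probe sets at a signal of 20 or more. For actin, the signal near the 3′ end divided by that near the 5′ end, which rises as RNA degrades, averaged 2.41 ± 0.12 in ape2 H and 2.73 ± 0.21 in ape2 L, against 2.63 ± 0.36 in Ws-2 H and 2.98 ± 0.23 in Ws-2 L (SD, n = 3 each). Its mean was thus lower in ape2 than in Ws-2 and lower in H than in L. Ranges overlapped in each of these comparisons, while those of ape2 H and Ws-2 L did not overlap. The same ratio for the gene GAPDH put the groups in the same order. It averaged 1.10 ± 0.05 in ape2 H and 1.15 ± 0.06 in ape2 L, against 1.13 ± 0.04 in Ws-2 H and 1.24 ± 0.10 in Ws-2 L. The part of both ratios in the values below was not tested. Of 21 marker genes of leaf and other cells, 4 have a probe set named here, and none of these is listed at 0. The Rubisco activase gene RCA of mesophyll cells averaged 3993 ± 241 in ape2 H and 3834 ± 279 in ape2 L, against 4109 ± 474 in Ws-2 H and 4326 ± 447 in Ws-2 L (SD, n = 3 each). The guard cell regulator FMA averaged 53.9 ± 6.87 in ape2 H and 55.2 ± 11.4 in ape2 L, against 43.6 ± 4.65 in Ws-2 H and 51.3 ± 7.17 in Ws-2 L. EXPA7 of root hairs had group means between 18.7 and 21.1, and AUR1 of dividing cells between 50.6 and 54.5. None of the 4 passed the test for the mean genotype difference, the mean condition difference or the interaction. No marker of phloem, trichomes or senescent leaves was measured under a gene name. Among the members 18 varied widely within groups, and 15 of them were above the group mean on ape2 H 2, ape2 L 2, Ws-2 H 1 and Ws-2 L 1 and below it on Ws-2 H 2, as given in full further on. In leaf tissue, fewer cells of a type and less RNA per cell cannot be told apart.

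Of the 72 probe sets, 33 have 1 gene named in the annotation, each a different gene, and 39 have none and are called by their probe set number. The mean difference of ape2 minus Ws-2 ran from 0.51 to 3.25 on the log2 scale with a median of 0.92, and that of H minus L from -1.83 to -0.40 with a median of -0.60. Their mean signals spanned 50.8 to 1668 with a median of 159.9, beside a median of 128 over the 9739 bright probe sets, bright meaning a mean signal of 50 or more. At the same limits 37 probe sets were lower in ape2 and higher in H, 17 were lower in both ape2 and H, and 3 were higher in both. Just inside the genotype limit stood 251443_at, AT3G25600 and AT5G05090, at 0.51 each, and just outside it 261130_at, 260904_at and AT3G04640, at 0.49 each. At the condition limit 267596_s_at, UGT88A1 and AT2G40270 (-0.40 each) were kept, while AT2G29290, 267083_at and 247726_at, which also round to -0.40, were not. At the limit on mean signal 250099_at (50.8), 251673_at (51.8) and 267495_at (52.1) were kept, and AT2G29300 (48.6), AT5G05860 (46.3) and 262274_at (45.5) were not.

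The 4 groups fell in nearly the same order for every member, which the choice of members largely fixes. The mean signal was lowest in Ws-2 H for 72 of 72 and highest in ape2 L for 71 of 72. The exception was 261901_at, which read 248, 343 and 245 in ape2 H and 298, 307 and 222 in ape2 L, against 72.6, 59.4 and 47.7 in Ws-2 H and 139.8, 112 and 105 in Ws-2 L, so that its ape2 H and ape2 L arrays overlapped. The other groups lay between, with ape2 H above Ws-2 L for 60 members and below it for 12. The median member was 2.29 times as bright in ape2 as in Ws-2 in condition H and 1.85 times in condition L. Its signal in H was 0.70 of that in L in ape2, and 0.56 of that in L in Ws-2. Read over the members, the mean of log2(signal + 10) was 7.56 ± 0.11 in ape2 H and 8.14 ± 0.08 in ape2 L, against 6.37 ± 0.17 in Ws-2 H and 7.22 ± 0.11 in Ws-2 L (SD over 3 arrays each). The arrays of ape2 did not overlap those of Ws-2 for 66 members in H and for 67 in L, where 12.6% and 13.4% of the 16121 probe sets tested were higher in ape2 without overlap. The arrays of H lay below those of L without overlap for 52 members in ape2 and for 62 in Ws-2, where 12.8% and 10% of all tested did. All of these separations held for 50 members and for 0.813% of all tested. Nothing is read from these counts, since they follow the choice of members.

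**Figure D1:**
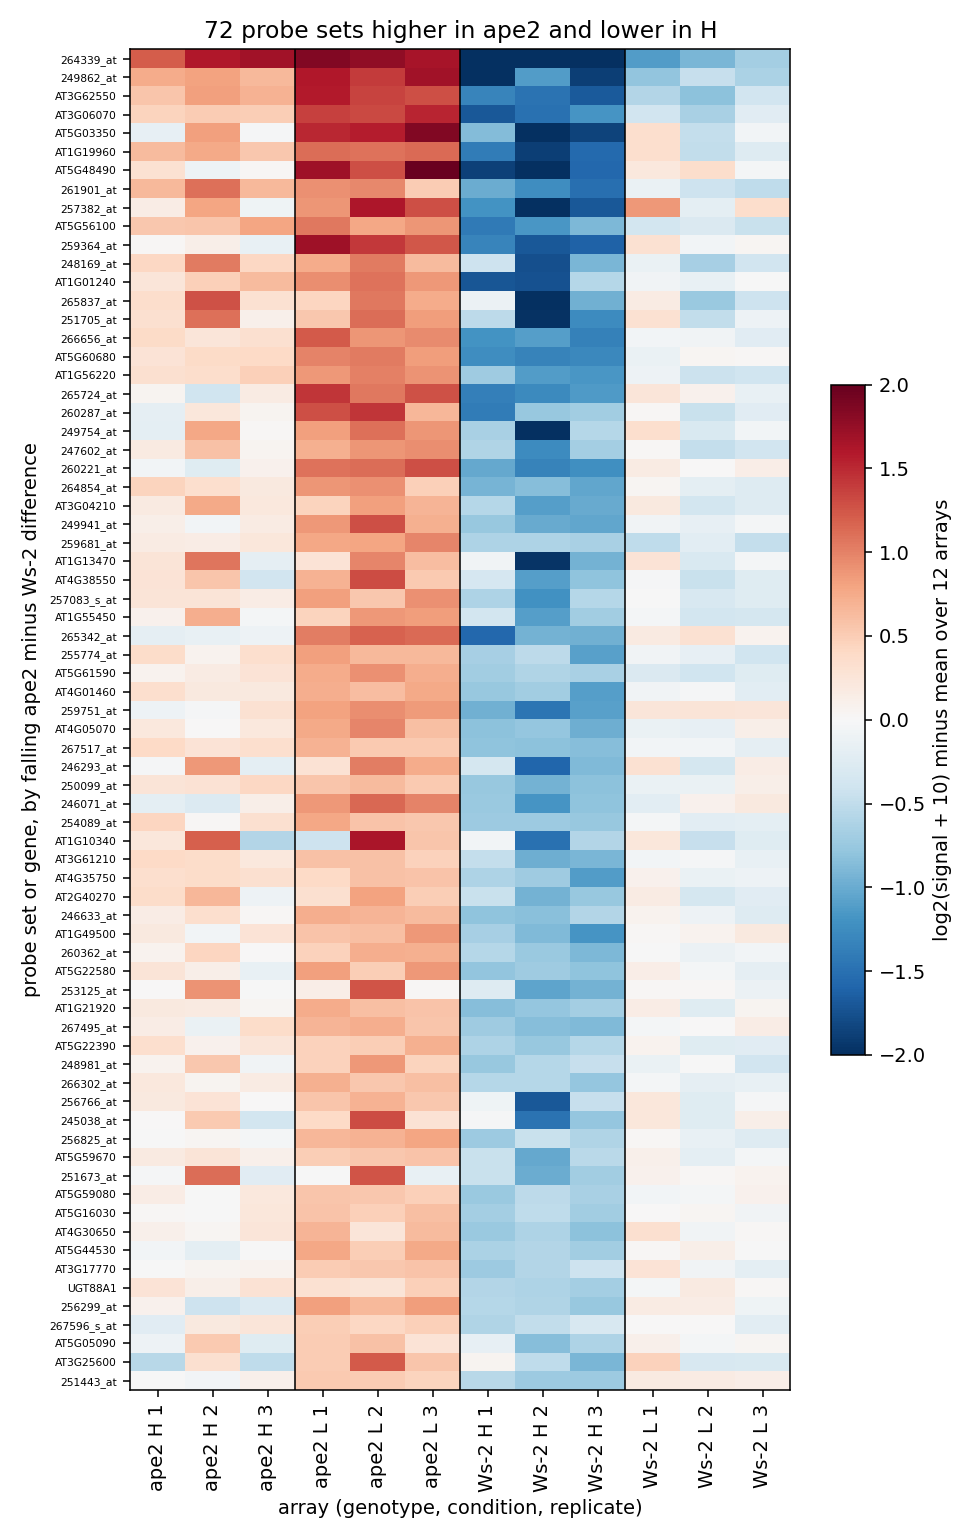
Each row is 1 of the 72 probe sets and each column 1 array, with colour for log2(signal + 10) minus the row's mean over 12 arrays, cut off at -2 and 2. Rows run from the largest to the smallest mean difference of ape2 minus Ws-2, 3.25 to 0.51. The Ws-2 H columns are lowest and the ape2 L columns highest, and ape2 H 2 is redder and Ws-2 H 2 bluer than the other arrays of their groups in a subset of rows.

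Members grouped here as families named for stress, dormancy or senescence, with a lipid-binding protein among them, numbered 6. They ranged from 0.63 to 2.09 for ape2 minus Ws-2 and from -0.94 to -0.47 for H minus L. AT3G62550, which codes for a member of the universal stress protein family, read 210.3, 256 and 234 in ape2 H and 441, 373 and 356 in ape2 L, against 50, 43.8 and 37 in Ws-2 H and 90.1, 75 and 106 in Ws-2 L. Its ape2 arrays were above all Ws-2 arrays in both conditions, and its mean differences were 2.09 between genotypes and -0.81 between conditions. AT1G56220 belongs to the dormancy/auxin-associated family, named for genes that are high in dormant buds or lowered by auxin. It read 252, 258 and 284 in ape2 H and 374, 414 and 384 in ape2 L, against 119, 87.6 and 84.6 in Ws-2 H and 187, 146 and 151 in Ws-2 L, with no overlap between any of the 4 groups. It is the only member on any of the pathway lists, and the single gene with a named probe set of 13 on the list of auxin- and growth-repressed genes.

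AT5G60680 is of the S40 family, named for a barley gene of leaf senescence, and its replicates were close together. It read 151, 163 and 165 in ape2 H and 254, 262 and 228 in ape2 L, against 46.1, 42.4 and 44.6 in Ws-2 H and 112, 127 and 125 in Ws-2 L. None of its groups overlapped, and H minus L was -0.60 in ape2 and -1.27 in Ws-2. AT4G35750, with a SEC14 lipid-binding domain, read 241, 247 and 240.0 in ape2 H and 253, 289 and 285 in ape2 L, against 120.4, 112 and 81.4 in Ws-2 H and 202, 172 and 176 in Ws-2 L. Its groups did not overlap, with -0.17 for H minus L in ape2 and -0.77 in Ws-2. AT4G30650, a small hydrophobic protein of a family induced by cold and salt, read 207, 198 and 229 in ape2 H and 314, 229 and 303 in ape2 L, against 112, 122 and 105 in Ws-2 H and 243, 184 and 197 in Ws-2 L. In L its ape2 and Ws-2 arrays overlapped, and in H they did not. AT5G22580, with a stress-responsive A/B barrel domain, read 105, 95.2 and 77.1 in ape2 H and 159.7, 126 and 165 in ape2 L, against 45.7, 48.8 and 45.1 in Ws-2 H and 95.7, 84.3 and 75.1 in Ws-2 L, and its groups were apart except for ape2 H, which overlapped Ws-2 L.

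A further 6 members code for a lectin, a lipid-transfer protein, an immune receptor protein, protein kinases and an ankyrin-repeat protein. Their differences were 0.72 to 1.85 between genotypes and -1.83 to -0.40 between conditions. AT5G03350, a legume-type lectin that is induced by salicylic acid, read 130.0, 269 and 145 in ape2 H and 437, 456 and 556 in ape2 L, against 76, 15.4 and 33.7 in Ws-2 H and 189, 104 and 142 in Ws-2 L. Its ape2 H 2 and Ws-2 H 1 arrays were well above the others of their groups, and 15.4 in Ws-2 H 2 was the lowest value. Its ape2 H arrays overlapped Ws-2 L, and its other groups were apart. AT5G48490, a lipid-transfer protein close to DIR1 of systemic acquired resistance, read 206, 153 and 168 in ape2 H and 557, 420.1 and 680.5 in ape2 L, against 37.8, 26.3 and 48.7 in Ws-2 H and 192, 215 and 161 in Ws-2 L. It had the largest fall between conditions among the members, -1.83, and its ape2 H and Ws-2 L arrays overlapped. AT3G04210, of the TIR-NBS class of immune receptor proteins, read 96.9, 149 and 99.4 in ape2 H and 118, 157 and 140.5 in ape2 L, against 53.3, 33.7 and 36.8 in Ws-2 H and 98.1, 63.1 and 69.1 in Ws-2 L. Its ape2 H arrays overlapped both ape2 L and Ws-2 L.

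AT5G59670 and AT2G40270 code for protein kinases, with mean genotype differences of 0.72 and 0.85. AT5G59670, which has leucine-rich repeats, read 246, 259 and 233 in ape2 H and 308, 317 and 326 in ape2 L, against 156, 101 and 145 in Ws-2 H and 231, 186 and 210.0 in Ws-2 L, and its arrays separated genotypes in both conditions. AT2G40270 read 180.4, 225 and 128 in ape2 H and 174, 248 and 198 in ape2 L, against 98.5, 66.8 and 77.5 in Ws-2 H and 156, 106 and 117 in Ws-2 L, so that its ape2 H arrays overlapped those of ape2 L and of Ws-2 L. AT1G10340, an ankyrin-repeat protein, varied most within groups of all members. It read 53.5, 114 and 26 in ape2 H and 30.5, 158 and 69.7 in ape2 L, against 41.9, 9.3 and 26.1 in Ws-2 H and 53.6, 29.2 and 35.8 in Ws-2 L, and the arrays of every pair of groups overlapped.

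Regulators and a calcium sensor made up 4 members, from 0.51 to 0.96 between genotypes and -0.71 to -0.48 between conditions. AT5G61590 codes for an AP2/ERF factor that represses genes of wax synthesis. It read 65.2, 70 and 76.1 in ape2 H and 109, 125 and 108 in ape2 L, against 34, 37.4 and 35.6 in Ws-2 H and 48.6, 44.4 and 50.3 in Ws-2 L, with no overlap between groups and with the smaller change between conditions in Ws-2. AT4G01460, a bHLH factor, read 107, 96.1 and 96.7 in ape2 H and 144, 133 and 148 in ape2 L, against 45.2, 47.5 and 33.4 in Ws-2 H and 78.8, 81 and 70.4 in Ws-2 L, with all groups apart. The MYB-related gene AT5G05090 was near the genotype limit and read 56.3, 92.2 and 50.3 in ape2 H and 91.2, 97.4 and 76.7 in ape2 L, against 53.6, 29.4 and 36.8 in Ws-2 H and 66.6, 59.4 and 63.7 in Ws-2 L. AT3G25600, a calmodulin-like calcium sensor also near that limit, read 41.7, 84.7 and 43.5 in ape2 H and 97.8, 168 and 102 in ape2 L, against 68.8, 43.4 and 30.4 in Ws-2 H and 94.9, 51.3 and 51.7 in Ws-2 L. For both of these the ape2 and Ws-2 arrays overlapped in H and were apart in L.

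Of the enzymes, 5 members spanned 0.57 to 0.98 between genotypes and -0.72 to -0.40 between conditions. UGT88A1, a glucosyltransferase of small molecules, read 646, 580.2 and 658 in ape2 H and 661, 644 and 748 in ape2 L, against 352, 343 and 330.4 in Ws-2 H and 522, 606 and 543 in Ws-2 L. Its ape2 H and ape2 L arrays overlapped, while in Ws-2 the H arrays were far below the L arrays. The methyltransferase AT3G61210 read 114, 112 and 98.5 in ape2 H and 131, 131 and 119.7 in ape2 L, against 57.7, 37.9 and 40.2 in Ws-2 H and 80.3, 82.7 and 74.9 in Ws-2 L, and its relative by domain AT1G55450 read 142, 225 and 128 in ape2 H and 185, 250.3 and 245 in ape2 L, against 100.4, 56.4 and 77.5 in Ws-2 H and 128, 100.1 and 101 in Ws-2 L. AT3G61210 separated all 4 groups, whereas AT1G55450 overlapped between conditions in both genotypes. AT3G17770, a dihydroxyacetone kinase that phosphorylates a triose, read 214, 224 and 228 in ape2 H and 312, 319 and 326 in ape2 L, against 127, 140.1 and 159 in Ws-2 H and 263, 206 and 187 in Ws-2 L. The subtilase AT5G44530, a serine protease, read 108, 96.8 and 112 in ape2 H and 200.4, 162 and 198 in ape2 L, against 69.3, 71.9 and 65.7 in Ws-2 H and 114, 122 and 112 in Ws-2 L. Both separated genotypes and conditions, with H minus L at -0.50 in ape2 and -0.58 in Ws-2 for AT3G17770, and at -0.76 in ape2 and -0.68 in Ws-2 for AT5G44530.

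**Figure D2:**
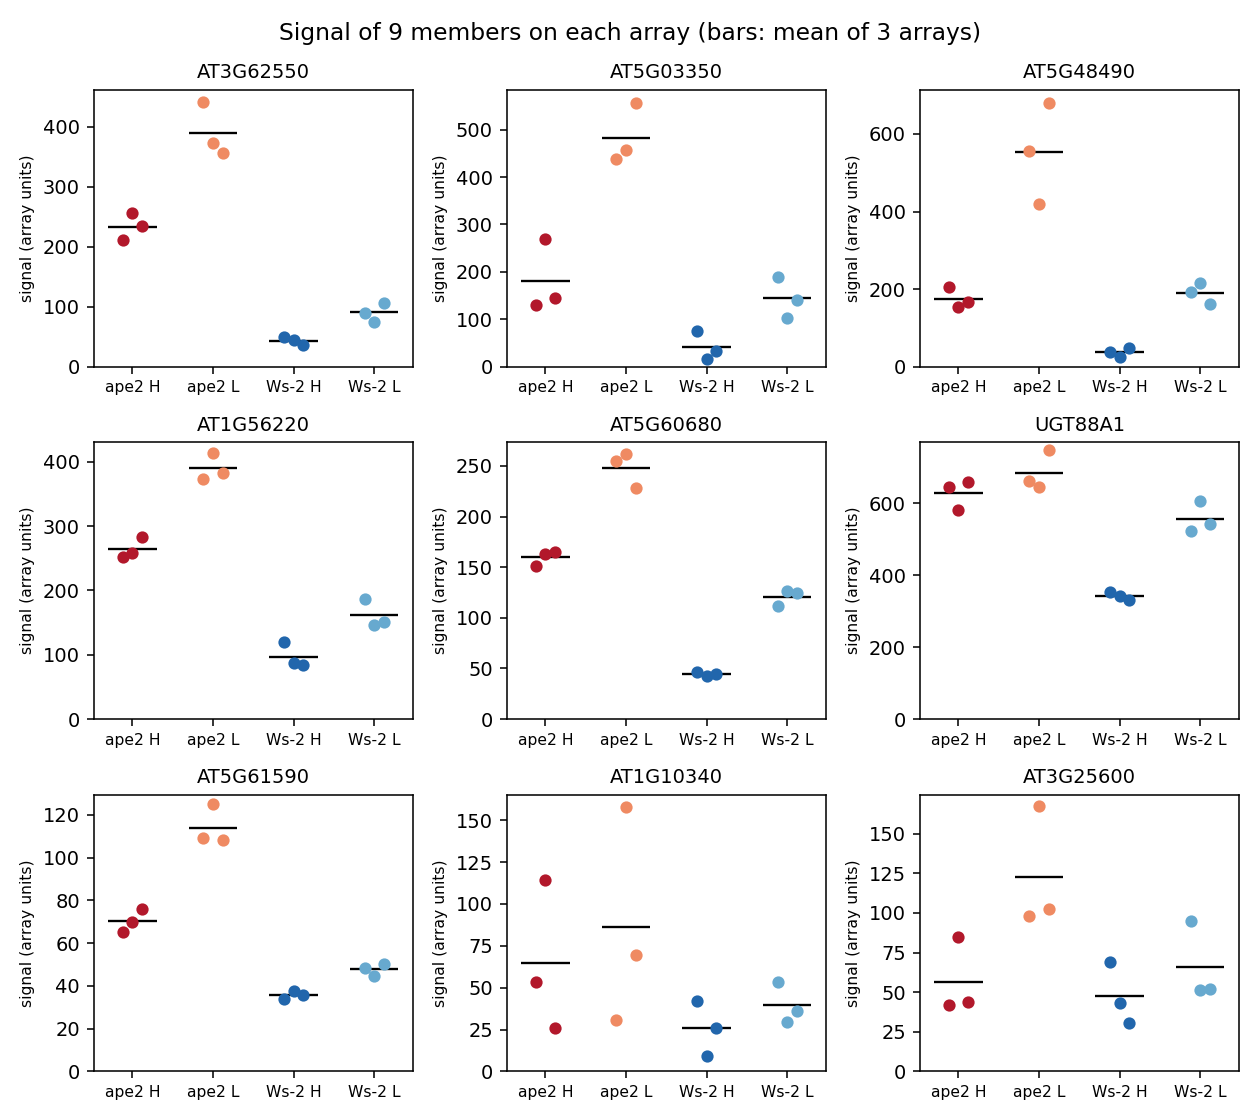
Each panel plots the signal of 1 member on a linear axis from 0, with a point for each of 3 arrays and a bar for their mean, in ape2 H, ape2 L, Ws-2 H and Ws-2 L. AT5G60680 and AT5G61590 have tight groups, whereas AT1G10340 runs from 9.30 to 41.9 in Ws-2 H alone and overlaps between all groups.

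Another 12 named members have no role given here, with 0.64 to 1.88 between genotypes and -0.98 to -0.43 between conditions. AT1G19960 read 798, 877 and 749.8 in ape2 H and 1126, 1099 and 1143 in ape2 L, against 188, 132 and 169 in Ws-2 H and 651, 361 and 430.2 in Ws-2 L. AT3G06070 read 127, 133 and 132 in ape2 H and 249.8, 240.3 and 278 in ape2 L, against 21, 25.7 and 34.4 in Ws-2 H and 67.1, 54.5 and 76.1 in Ws-2 L. Both separated all 4 groups. AT5G56100 read 207, 208 and 249 in ape2 H and 300, 243 and 264 in ape2 L, against 45.8, 56.4 and 69.8 in Ws-2 H and 106, 111 and 99.1 in Ws-2 L, and its groups overlapped only between ape2 H and ape2 L. AT1G01240 read 57.6, 69.5 and 78.7 in ape2 H and 98.9, 111 and 94.6 in ape2 L, against 7.5, 7.1 and 28.5 in Ws-2 H and 44.3, 41.6 and 47.1 in Ws-2 L, with no overlap between groups. The rest of these 12 were AT1G13470, AT4G38550, AT4G05070, AT1G49500, AT1G21920, AT5G22390, AT5G16030 and AT5G59080.

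The 39 unnamed members included the largest genotype difference of all. 264339_at read 127, 171 and 179 in ape2 H and 203, 193 and 175 in ape2 L, against 2, 1 and 2 in Ws-2 H and 17.3, 21.3 and 27.1 in Ws-2 L, a mean difference of 3.25, and with Ws-2 H values this low the size of that difference depends on the offset of 10. 249862_at, at 2.29, read 80.9, 84.9 and 75.5 in ape2 H and 156, 133 and 164 in ape2 L, against 3.7, 15 and 4.8 in Ws-2 H and 21.6, 29.4 and 25.1 in Ws-2 L. Its groups were all apart, while 264339_at overlapped between ape2 H and ape2 L. Strong falls between conditions were seen for 257382_at (-1.61), 259364_at (-1.55), 265724_at (-1.31), 265342_at (-1.30), 260221_at (-1.27) and 259751_at (-1.11). Of these 260221_at read 332, 289.7 and 367 in ape2 H and 746, 760.3 and 854 in ape2 L, against 165, 131 and 141 in Ws-2 H and 390.0, 347 and 380.2 in Ws-2 L. 265342_at read 41.2, 42.1 and 44.2 in ape2 H and 107, 122 and 118 in ape2 L, against 9.6, 20 and 19.9 in Ws-2 H and 55.6, 62 and 51 in Ws-2 L, and all of its groups were apart, while for 260221_at the ape2 H arrays overlapped Ws-2 L. 259364_at read 42.2, 45.3 and 36 in ape2 H and 157, 126 and 111 in ape2 L, against 10.6, 5.8 and 6.7 in Ws-2 H and 53.5, 39.1 and 42.8 in Ws-2 L, and 257382_at read 131, 209 and 109.7 in ape2 H and 226, 379.7 and 301 in ape2 L, against 45.4, 8.5 and 29.4 in Ws-2 H and 221, 102 and 153 in Ws-2 L. In both of these the ape2 H arrays overlapped Ws-2 L. A total of 6 of the 72 members had a group mean under 20.

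The named members were not neighbours in the genome. By gene order in the RefSeq table the closest pair, AT5G22390 and AT5G22580, had 21 protein-coding genes between them. By locus code 12 of the 33 genes lay on chromosome 5 (36.4%), where 23.9% of the 5070 named bright genes lie, and 1 lay on chromosome 2 (3.03%, beside 14.6%), given as counts with no test.

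How the condition affected each genotype was tested by the interaction, the H minus L difference in ape2 minus that in Ws-2. A positive value here means that the fall in H was smaller in ape2, or equally that ape2 stood further above Ws-2 in H than in L. limma called 0 of the 72 members at an adjusted p under 0.05, where 3 of 16121 probe sets (0.0186%) were called, 2 of them positive (0.0124%). At an unadjusted p under 0.05 there were 17 positive members (23.6%) and 2 negative (2.78%), beside 3.51% and 4.15% of all tested. The interaction was positive for 62 of the 72 and negative for 10, with a median of 0.23 and a range from -0.60 to 1.25. Over the 9739 bright probe sets 50.3% were positive and the median was 0.0010. Members share arrays and were not tested as a set. The interaction is built from the 4 group means that chose the members, and is independent of the choice only where groups vary alike. The SD over arrays of the members' mean log2 value was 0.17 in Ws-2 H and 0.08 in ape2 L. Both limits favour a low Ws-2 H mean, which raises the interaction, and a high ape2 L mean, which lowers it. A wider spread in Ws-2 H than in ape2 L would thus favour positive values among the members. How much this did to the counts of signs was not tested. The positive members numbered 55 without ape2 H 2, 60 without ape2 L 2, 60 without Ws-2 H 1, 54 without Ws-2 H 2 and 54 without Ws-2 L 1, the arrays that stood apart for the widely varying members.

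After 264339_at, the smallest p-values among the members belonged to AT5G60680 at 0.67 ± 0.12 (SE, adjusted p = 0.0807), UGT88A1 at 0.57 ± 0.11 (0.118), 267517_at at 0.48 ± 0.10 (0.118) and AT1G19960 at 1.0 ± 0.25 (0.284). 267517_at read 1002, 915 and 954 in ape2 H and 1237, 1088 and 1092 in ape2 L, against 429, 425 and 416 in Ws-2 H and 728, 730.2 and 666 in Ws-2 L. In each of these 4 the fall in H was larger in Ws-2 on the log2 scale, while on linear signals it was larger in ape2 for AT5G60680. The value of 264339_at is not read as a result, since its signals of 2, 1 and 2 in Ws-2 H let the offset set it. Its interaction was 2.84 with an offset of 1 (adjusted p = 0.00114), 1.19 ± 0.20 with an offset of 10 (0.0657) and 0.45 with an offset of 32 (0.463), and with an offset of 10 its adjusted p was below 0.05 without Ws-2 L 1 (0.0404) or ape2 H 1 (0.0227). Over all alternatives on the log2 scale the adjusted p ranged from 0.0514 to 0.253 for AT5G60680, from 0.0708 to 0.343 for UGT88A1, from 0.0886 to 0.358 for 267517_at and from 0.181 to 0.512 for AT1G19960.

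Values near 0, which do not show that the genotypes responded alike, were found for 247602_at at 0.0029 ± 0.25, AT1G55450 at 0.01 ± 0.30 and 265724_at at 0.01 ± 0.20 (SE, adjusted p from 0.997 to 0.999). The 10 negative members included 259681_at at -0.44 ± 0.12 (adjusted p = 0.284), 256825_at at -0.26 ± 0.12 (0.637) and AT5G61590 at -0.29 ± 0.14 (0.673). 259681_at read 438, 430.3 and 455 in ape2 H and 672, 683 and 774 in ape2 L, against 251, 251 and 243 in Ws-2 H and 271, 334 and 278 in Ws-2 L, so that its Ws-2 groups lay closer together than its ape2 groups.

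The direction of the interaction depended on the scale. On differences of linear signals, an alternative chosen after seeing the data, 22 of the 72 members were positive and 50 negative, while 48.7% of the bright probe sets were positive. The choice of members favours negative values there. For a probe set higher in ape2, an equal fold fall in both genotypes is a larger linear fall in ape2. Nothing is read from this count. UGT88A1 and AT5G48490 show the difference: by group means UGT88A1 stood at 628 in ape2 H against 684 in ape2 L, and at 342 in Ws-2 H against 557 in Ws-2 L, whereas AT5G48490 stood at 176 in ape2 H against 552 in ape2 L, and at 37.6 in Ws-2 H against 189 in Ws-2 L.

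**Figure D3:**
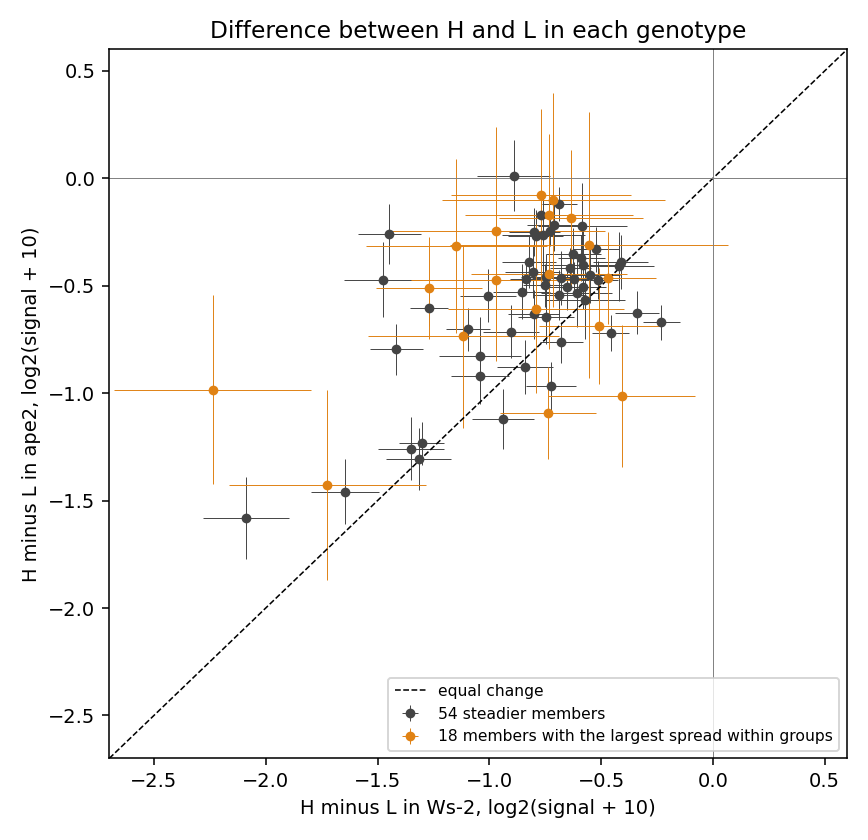
For each of the 72 members the H minus L difference of log2(signal + 10) in ape2 is plotted against that in Ws-2, with standard errors from limma, and the dashed line marks an equal difference. Above the line, with the smaller fall in ape2, lie 62 members, and the 18 members with the largest spread within groups have the longest bars.

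Other sets taken from the same probe sets at the same limits were set beside the members, with no test of the difference between sets. Of 275 probe sets that were higher in ape2 with an H minus L difference between the limits, 179 (65.1%) had a positive interaction, with a median of 0.12. Among 165 that were lower in H with a genotype difference between the limits, 74 (44.8%) were positive, with a median of -0.03. In the mirror set of 37 that were lower in ape2 and higher in H, 28 (75.7%) were positive, with a median of 0.18, and there a positive value means a larger rise in H in ape2. Of the 17 that were lower in both ape2 and H, 4 (23.5%) were positive, with a median of -0.18.

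A subset of members moved together between arrays of the same group, which the choice by group means did not use. The leading component of the deviations from group means held 66.8% of the members' variance within groups, and the next 10.9%. The 18 members with the largest spread within groups, a number chosen after the values were seen, had residual SDs from 0.31 to 0.79 on the log2 scale, and the other 54 from 0.07 to 0.29. Over 153 pairs of the 18 the mean correlation of deviations was 0.65, over 1431 pairs of the 54 it was 0.03, and over all pairs of the 9739 bright probe sets it was 0.0017. Over all 72 members it was 0.076, beside 0.074 over the 275 probe sets higher in ape2 with H minus L between the limits and 0.061 over the 165 lower in H with the genotype difference between the limits, so the mean over the members was close to that of these sets. All of these pairs share the same 12 arrays, and no mean was taken over equally variable probe sets outside the members. Named genes among the 18 were AT1G10340, AT1G13470, AT5G03350, AT3G25600, AT4G38550, AT1G01240 and AT1G55450.

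Of these 18, 15 were above the group mean on ape2 H 2, ape2 L 2, Ws-2 H 1 and Ws-2 L 1 and below it on Ws-2 H 2, and 14 had a correlation of at least 0.8 with the leading component. The 3 others were AT5G03350, which was slightly low on ape2 L 2 (-0.07), and AT1G01240 and 260287_at, which were low on Ws-2 H 1 (-0.37 and -0.45) and had correlations of 0.11 and 0.0070 with the component. Over all 18 the median deviation was 0.57 in ape2 H 2, with 18 of 18 above the group mean, and 0.32 in ape2 L 2, with 17 above. It was 0.60 in Ws-2 H 1, with 16 above, and 0.27 in Ws-2 L 1, with 18 above. In Ws-2 H 2 it was -0.72, with 1 above. For the other 54 members the medians on the 12 arrays lay between -0.06 and 0.06. AT1G13470 shows the pattern, with 316, 568 and 232 in ape2 H and 323, 532 and 412 in ape2 L, against 249.8, 60.6 and 133 in Ws-2 H and 322, 212 and 257 in Ws-2 L. The highest arrays carried replicate number 2 in ape2 and 1 in Ws-2, and the labels give no batch for these arrays.

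At a correlation of at least 0.8 with this component stood 19 of the 72 members (26.4%) and 354 of the other 9667 bright probe sets (3.66%). The component was computed from the members, so their share is a description. The named probe sets outside the set with the closest likeness over the 12 arrays were AT5G52750 (r = 0.97), BZIP53 (0.95), AT1G03290 (0.95), SBT3.5 (0.95) and AT4G08850 (0.95), chosen after their values were seen. Their mean differences of ape2 minus Ws-2 ran from 0.59 for AT4G08850 to -0.07 for SBT3.5.

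**Figure D4:**
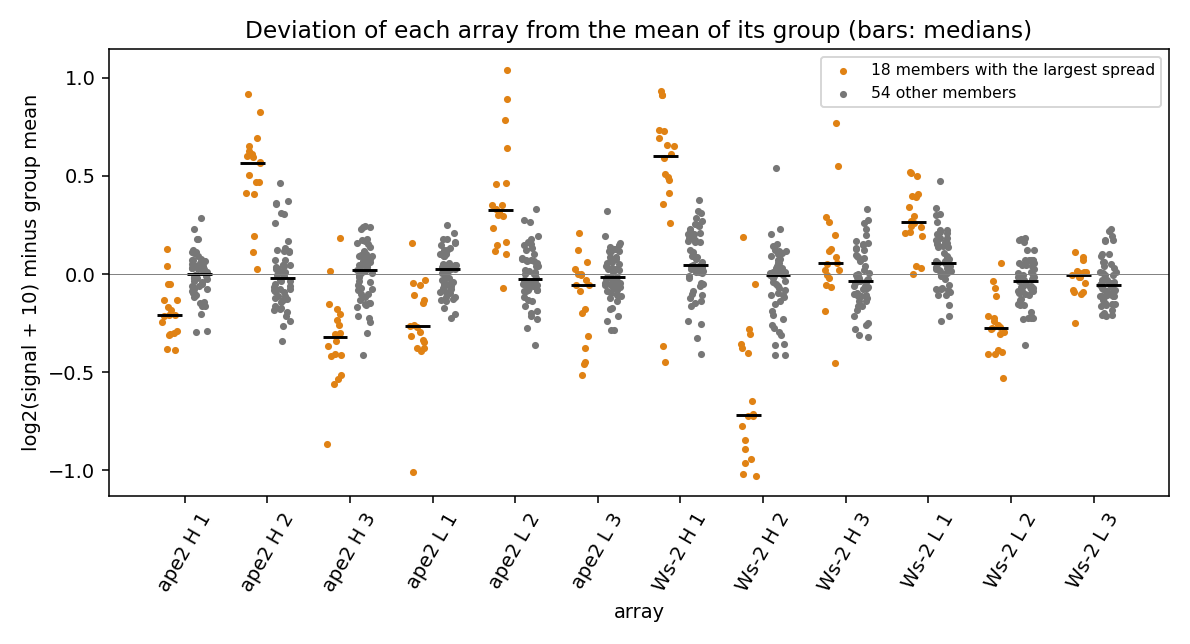
For each array the points are the members' deviations from the mean of its group in log2(signal + 10), in orange for the 18 members with the largest spread and in grey for the other 54, with bars for medians. The orange medians run from -0.72 in Ws-2 H 2 to 0.60 in Ws-2 H 1, while the grey ones stay between -0.06 and 0.06.

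Without each array in turn 49 of the 72 still met the limits every time. Without Ws-2 H 2 it was 58 of the 72, and without ape2 L 2 also 58. The interaction was positive for 15 of the 18 and 47 of the 54.

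Other genes of related pathways were read from 8 lists with 143 genes, of which 29 have a named probe set here. The tests are of the mean genotype and the mean condition differences, for which 8.99% of all tested probe sets rose and 9.79% fell in ape2, and 3.65% rose and 4.58% fell in H. Of 29 sugar-repressed genes 4 have a named probe set, and 3 of these rose in ape2. They were the SnRK1 subunit gene AKINBETA1 (0.91 ± 0.08, SE), AT3G26510 (0.86 ± 0.08) and AT3G15450 (0.36 ± 0.09), with adjusted p up to 0.00767. None of these 3 passed for a fall in H. There AT3G26510 rose by 0.31 ± 0.08 (adjusted p = 0.0241), and AT3G15450 was lower but missed the threshold (-0.26 ± 0.09, 0.0819). ATL8, a ubiquitin ligase gene, fell by 0.76 ± 0.13 in H (0.00173) and missed the threshold for genotype (0.37 ± 0.13, 0.0601).

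Of 11 autophagy genes with a named probe set 4 rose in ape2 and 0 fell, and 0 passed for the condition. Of 14 cold- and drought-regulated genes 3 have a named probe set, COR47, COR15B and COR15A. All 3 fell in H by 0.38 to 0.60 and did not pass for genotype (-0.09 to -0.04). In starch metabolism 3 of 5 genes with a named probe set fell in ape2 and 3 rose in H. APL3, a subunit of ADP-glucose pyrophosphorylase, did both, at -0.67 ± 0.08 and 0.46 ± 0.08 on the log2 scale. Among the clock genes CCL rose in ape2 (1.25 ± 0.08) and fell in H (-0.30 ± 0.08, adjusted p = 0.0269), short of the limit of -0.4, while GI fell in ape2 (-0.37 ± 0.06) and in H (-0.21 ± 0.06, 0.0429). Of 3 light-harvesting genes LHCB4.2 rose in ape2 (0.25 ± 0.06) and LHCB4.3 in H (0.41 ± 0.05). No trehalose phosphate gene of 20 has a named probe set here. In the interaction limma called 0 of the 29 list genes.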

How the data were processed

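Total RNA of 12 leaf samples was hybridised to 1 array each, labelled with biotin. The deposited values are signal intensities on a linear scale, which the authors computed with MAS5 according to the notes on processing that came with the samples (per the labels); its version is not given in the sources used here. Groups were taken from the sample titles. Values were used as deposited to choose the members. For the tests, arrays were brought to a common 2% trimmed mean of 100, controls were dropped, and 16121 probe sets that reached a signal of 20 on 3 arrays or more were kept. A 4-group model was fitted to log2(signal + 10) with limma 3.58.1 in R 4.3.3, using eBayes with trend and robust settings, two-sided tests and Benjamini-Hochberg adjustment over all 16121, and a call is an adjusted p under 0.05. Differences are on that scale, which understates changes of low signals. The procedure was tested on simulated data with independent noise and 50 interactions of each size on the log2 scale. It called 17 of 50 at a size of 0.5, 45 at 1.0, and all 50 at 1.5 and at 2.0. It also called 13 probe sets that had no simulated interaction. Most interactions of 0.5 were thus missed. The simulated data held 200 interactions, whereas 3 probe sets were called in the real data. More true interactions loosen the adjustment, so these shares can exceed those reached in the real data. The 0 calls among the members therefore do not exclude interactions of 0.5 or of larger sizes. AT1G19960, at 1.0, was not called.

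The members and gene lists were chosen with earlier results of these data known. Named members were those with a gene symbol, the 8 largest genotype and 8 largest condition differences, the 5 smallest interaction p-values, those on a list and the 3 nearest each limit; others named by role or pattern were chosen after their values were seen. Genes come from the platform annotation, in which 13513 probe sets have 1 gene, 503 several and 8730 none, and 13484 matched the RefSeq table of TAIR10.1. Promoters and proteins were not analysed here. The number of arrays limits the precision. The labels do not say whether replicates are separate plants, so p-values measure a spread that may be technical. The replicate number was checked as a pairing shared by all groups and did not pair the arrays in that way. A pairing of H with L within each genotype was not tested.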

Additional observations from a re-analysis of the deposited data

How the results depend on the processing

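The interaction was recomputed under 21 alternatives, 12 of which leave out an array, and the choice of members under 18. The number of members called was 0 in the reported analysis, 1 with an offset of 1 and 0 to 1 without each array, the call being 264339_at each time. The number of all probe sets called was 3 as reported, 10 with array weights, 0 with a constant prior and 0 to 7 without each array. Positive members numbered 62 as reported, 22 on linear signals (chosen after seeing the data), 52 with an offset of 32 and 54 to 62 without each array. The limits were met by 72 probe sets as reported, 97 with an offset of 1, 54 with an offset of 32, and 62 to 109 without each array, 109 being without Ws-2 H 1. On linear signals, where the choice of members favours negative values, 16 of the 25 named members with a positive value on the log2 scale were negative. Among them were AT5G48490, 260221_at, AT5G03350, AT3G62550, AT3G06070 and AT1G56220. Of 545 interaction values of named members under the 21 alternatives on the log2 scale, 26 changed sign, none of them called, and 3 became called. With array weights 265724_at was at -0.0048 and 267596_s_at at -0.055. With an offset of 32 the values were -0.16 for 249862_at, -0.092 for AT3G06070, -0.19 for 259364_at, -0.12 for 265342_at, -0.13 for 265724_at and -0.0046 for 267596_s_at. With quantile normalization 265724_at was at -0.027. Without each array in turn the interaction ran from -0.11 to 0.18 for 265724_at, -0.064 to 0.17 for 267596_s_at, -0.11 to 0.19 for 265342_at, -0.13 to 0.76 for AT5G03350, -0.051 to 0.37 for AT5G05090 and -0.0091 to 0.16 for 260221_at. The cause of these changes was not tested.

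With the replicate number as a replicate block 0 members and 2 probe sets were called and 62 members were positive. Of 18 pairs of arrays with the same number, the correlations of deviations ran from -0.28 to 0.37, and an array correlated best with its own number in 12 of 36 comparisons. Between H and L of the same genotype they were all positive, at 0.14, 0.37 and 0.07 in ape2 and 0.12, 0.04 and 0.05 in Ws-2. Between genotypes they ran from -0.28 to 0.07. The block was shared by both genotypes, so it could not show a pairing of H with L within each genotype, which was not tested. Promoter motifs and protein features were not run, since no sequence table was at hand. Low signals limit members with a group mean under 20, of which there were 6.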
